A study of Caenorhabditis elegans with 16 samples.

Results

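The subject here is the set of antisense 22G-RNAs that pair with the 5′ part of the oma-1 coding sequence in 6 Caenorhabditis elegans strains that carry tagged oma-1 genes. Bases are counted from 1 at the A of the start codon, and a 22G-RNA is placed by the base that pairs with its 5′ G. Members are the entries of the 6 library files that lie at coding bases 1 to 601, and each entry is a distinct sequence with a read count. There were 821 such entries of 2372 in these 6 libraries and of 4497 in all 16 libraries of the study. They came from 418 distinct sequences and 18526 reads.

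Whole synchronised worms were used, and each genotype had 1 library. Intronless oma-1::gfp was a transgene inserted on chromosome II with a Cbr-unc-119(+) marker in an unc-119(ed9) background. It was read in a strain with insertion neSi75 whose own oma-1 was removed by the full deletion ne4864 (the locus-deleted library), and in a strain with insertion neSi74 that kept its own oma-1 (the locus-present library). Intronless oma-1::3xflag was a change at the endogenous oma-1 locus on chromosome IV. It was read with the null allele prg-1(ne4844) and oma-1 allele ne4845 (the prg-1 library), with the null allele rde-3(ne4871) and oma-1 allele ne4869 (the rde-3 library), and with ne4869 alone (the intronless 3xflag library). A strain in which the introns had been put back, oma-1(ne4868), served as its control (the restored library). The reference sequences of the reporters are identical over coding bases 1 to 1202, so every read described here could pair equally with either reporter. In the locus-present strain the worm's own oma-1 matches the same reads, and it cannot be told apart from the transgene. Its paralog oma-2 (chromosome V, 8029439 to 8031214) was not compared, because no genome sequence was used.

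In worms, RNA-dependent RNA polymerases copy a template RNA into short antisense 22G-RNAs, which start opposite a C and so begin with G. Argonaute proteins carry them and can silence the matching gene in the germline. OMA-1 is an oocyte protein with a pair of CCCH zinc fingers and is needed, redundantly with OMA-2, for oocyte maturation. RDE-3 is a nucleotidyltransferase that adds UG-repeat tails to RNAs, and these tailed RNAs serve as templates for the polymerases. PRG-1 is the Piwi Argonaute that binds piRNAs.

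The sequences below are those of the 5 most used sites of each library, 13 sites in all, because the comparisons turn on them. Each is the 22 nt without mismatch that pairs with oma-1 (chromosome IV, 8888976 to 8890999 in WBcel235), read 5′ to 3′ from the reference, with the capital marking the 5′ G.
base 6: Gttcatattgatgcagttgagt
base 12: Gttaacgttcatattgatgcag
base 119: Gtttgagacaagtccttagcgt
base 177: Gatagcaatcaagttagcagtt
base 214: Gttggttgaatgcaatatcttc
base 220: Gaatatgttggttgaatgcaat
base 224: Gattgaatatgttggttgaatg
base 244: Gaatcgcgcgaacttgcatcga
base 261: Gttctggggaaaactctgaatc
base 286: Gttgaaatggaggtgcaacctg
base 441: Gacgaatgttggacgaagttcc
base 491: Gtatatttgtcacagagtttcg
base 513: Gtatgggcagagtcctgtagtc
All 13 have A or T as their second base, a feature taken up again below. Those at bases 6 and 12 reach past the start codon into the sequence before it, and those at 214, 220 and 224 overlap each other.

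The 6 libraries held 96 to 17406 antisense reads each, and 45 to 11798 of them lay on bases 1 to 601. Every entry was 22 nt long, began with G and matched the antisense strand with at most 1 mismatch. Levels are in ppm, the authors' scaling of reads to a total of 2481671.0 to 5546660.0 per library. No source used here defines that total. There are no replicates, so a ratio compares 2 libraries and no test between genotypes was made. Intervals in parentheses are 95% intervals, exact unless said otherwise. They reflect counting error alone, and as the labels name no molecular identifiers, copies of 1 molecule may be among the reads. The library names put the locus-deleted library in set 7, the locus-present library in set 8, the prg-1 and rde-3 libraries in set 5, and the intronless 3xflag and restored libraries in set 9. Of the 7 ratios given below, 5 share the intronless 3xflag library and 5 cross sets, where set and genotype cannot be told apart.

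The summed level of the 601 bases differed widely across the strains. It was 926 ppm (899 to 954) in the locus-deleted library and 28.6 ppm (24.2 to 33.5) in the locus-present library. Among the oma-1::3xflag strains it was 3627 ppm (3562 to 3693) in the prg-1 library, 20.1 ppm (15 to 26.6) in the rde-3 library, 412 ppm (394 to 430) in the intronless 3xflag library and 8.11 ppm (5.92 to 10.9) in the restored library. The order was thus prg-1, locus-deleted, intronless 3xflag, locus-present, rde-3 and restored, and only the locus-present and rde-3 libraries had overlapping intervals.

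Within this region the same few sites carried much of the signal. Base 441, in codon 147, lay between the zinc finger codons and was the most read site of 4 libraries. It had 477 reads (98.2 ppm) in the locus-deleted library, 16 reads (3.03 ppm) in the locus-present library, 2522 reads (775 ppm) in the prg-1 library, 5 reads (2.01 ppm) in the rde-3 library, 293 reads (60.9 ppm) in the intronless 3xflag library and 0 reads in the restored library. A count of 0 there allows up to 0.541 ppm, taking 3 reads as the limit. This single site made up 10.6% of the region's reads in both oma-1::gfp libraries, 21.4% in the prg-1 library, 10% in the rde-3 library and 14.8% in the intronless 3xflag library. Within 11 bases of base 441 there are 9 C positions, itself included, and it held 80.6% of the reads there in the locus-deleted library, 85.1% in the prg-1 library and 85.4% in the intronless 3xflag library.

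Base 261, between the start codon and the first zinc finger, was second in the prg-1 and intronless 3xflag libraries. It had 254 reads (52.3 ppm) in the locus-deleted library, 5 (0.946 ppm) in the locus-present library, 864 (266 ppm) in the prg-1 library, 1 (0.403 ppm) in the rde-3 library, 138 (28.7 ppm) in the intronless 3xflag library and 0 in the restored library. Base 224 had 344, 8, 399, 4, 93 and 1 reads in the same order of libraries. It was second in the locus-deleted library and among the 5 most read sites of every library but the restored one. Base 6, whose 22G-RNA covers the start codon, had 83, 8, 364, 1, 92 and 3 reads in that order. Bases 201 to 250, which include the overlapping sites 214, 220 and 224, held 28% (16.2 to 42.5) of the region's reads in the rde-3 library and 10.2% to 14.9% in the other libraries.

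At the endogenous locus these 22G-RNAs were abundant in the intronless gene and scarce in the gene with its introns restored. The region had 1981 reads (412 ppm) in the intronless 3xflag library, against 45 reads (8.11 ppm) in the restored library, a ratio of 50.7 (37.8 to 69.8). For coding bases 602 to 1202 the same ratio was 34.9 (22.6 to 56.8), and the ratio of these 2 ratios was 1.45 with an approximate interval of 0.859 to 2.46, which includes 1. Sites are called here when a library differed from the other by at least 2-fold in ppm, over sites with at least 20 reads in both libraries together and with counts under 3 set to 3. All 25 sites of the region that reached 20 reads were called higher in the intronless 3xflag library, where 100.0% of all sites along the reference were, so the region did not stand apart by this count. No site of the region had more than 8 reads in the restored library, so each needed the intronless 3xflag library to reach 20. The filter thus largely fixed this count, which adds no support to the ratio.

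Bases 6 and 177 were among the 5 most read sites of both libraries, and the other 3 of each differed. Base 441 had 293 reads in the intronless 3xflag library and 0 in the restored library, at least 113-fold higher, with the 0 set to 3 reads. Base 261 had 138 reads against 0, at least 53.0-fold higher. Base 12 had the smallest ratio of the 25 sites, with 50 reads in the intronless 3xflag library against 8 in the restored library, a ratio of 7.20 (3.39 to 17.6). Base 177 had 101 against 7 reads and a ratio of 16.6 (7.78 to 42.4), and the median over the 25 sites was 13.1 with counts under 3 set to 3. That median depends on this setting, because 12 of the 25 sites had no read in the restored library. Bases 12 and 177 thus gave 15 of the 45 reads of the restored library. Bases 1 to 50 held 11.1% of the region's reads in the intronless 3xflag library and 28.9% (16.4 to 44.3) in the restored library. Of the 26 C positions read in the restored library, 25 were read in the intronless 3xflag library too.

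Loss of rde-3 went with a low level of these 22G-RNAs, in libraries of different sets and lanes. That difference cannot be told apart from the effect of the mutation. The region had 50 reads (20.1 ppm) in the rde-3 library, against 1981 reads (412 ppm) in the intronless 3xflag library, and was 20.4-fold lower (15.4 to 27.6). Bases 602 to 1202 were 21.9-fold lower (13.2 to 39.3), and the ratio of the 2 ratios was 1.07 (approximate interval 0.597 to 1.92). All 26 sites tested were called lower in the rde-3 library, as were 100.0% of all sites along the reference. No site of the region had more than 6 reads in the rde-3 library, so each needed the intronless 3xflag library to reach 20. The filter thus largely fixed this count, which adds no support to the ratio. At base 177 the rde-3 library had 0 reads and the intronless 3xflag library 101, at least 17.4-fold lower. At base 286 the ratio was nearest to 1, with 3 against 19 reads (ratio 0.306, 0.0580 to 1.04). Base 220 had 6 against 42 reads (ratio 0.277, 0.0962 to 0.655). Without the authors' scaling, the ratio of read counts was 0.0252, because the rde-3 library also had the smallest total.

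The prg-1 library had the highest level of all 6. The region had 11798 reads (3627 ppm) in the prg-1 library, against 1981 reads (412 ppm) in the intronless 3xflag library, a ratio of 8.81 (8.40 to 9.25). Here the region differed from the coding sequence after it. The ratio was 5.64 (5.17 to 6.17) for bases 602 to 1202, and the ratio of the 2 ratios was 1.56 (approximate interval 1.41 to 1.72). For the sequence before the start codon the ratio was 7.59 (6.36 to 9.10), an interval that overlaps that of the region. Of the 97 sites tested in the region 96 were called higher in the prg-1 library. Outside the region 59 of 89 (66.3%) were, and 83.3% of all sites. Many sites of the region needed the deeper prg-1 library to reach the minimum number of reads, so the filter favoured this call. In the prg-1 library 67.8% of all antisense reads lay in the region, against 36.1% in the intronless 3xflag library. The filter thus acted differently inside and outside, and these counts do not show that the region stood apart. Apart from prg-1 itself, these strains carry different oma-1 alleles (ne4845 and ne4869) and come from different library sets, which cannot be told apart from the effect of the mutation.

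The prg-1 excess was uneven along the region. In windows of 50 bases the ratio of the prg-1 to the intronless 3xflag library was lowest at bases 101 to 150, at 3.73 (3.05 to 4.59), and highest at bases 501 to 550, at 21 (15.5 to 28.9). Base 513 gave most of that window in prg-1, with 416 reads in the prg-1 library and 17 in the intronless 3xflag library, a ratio of 36.2 (22.3 to 62.8). Its share of the region was 3.53% in the prg-1 library and 0.858% in the intronless 3xflag library. Base 441 had a ratio of 12.7 (11.3 to 14.4), above that of the region. At the low end, base 131 had 22 reads in the prg-1 library and 23 in the intronless 3xflag library, a ratio of 1.42 (0.752 to 2.66), and base 177 had 194 against 101, a ratio of 2.84 (2.22 to 3.65).

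Of the 97 sites tested, 4 had no read in the intronless 3xflag library. They were base 551 with 29 reads, base 446 with 26 reads, base 57 with 25 reads and base 274 with 22 reads in the prg-1 library, each against 0. The first 3, which begin with GG, were at least 14.3-fold, 12.8-fold and 12.3-fold higher with the 0 set to 3 reads, and base 274 begins with GT. Base 274 was named after its values were seen.
base 57: Ggagctctcgagatgatgctca
base 274: Gtgcaacctggttgttctgggg
base 446: Ggctcgacgaatgttggacgaa
base 551: Ggtccatgatcgggatgaatga
Of the 32 C positions whose 22G-RNA begins with GG, 29 had a read in the prg-1 library and 15 in the intronless 3xflag library. The prg-1 library also had 5.96 times as many reads on the region, and no test of the GG sites at equal depth was made.

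The rde-3 and prg-1 libraries come from the same set and lane. Their strains carry different oma-1 alleles, which cannot be told apart from the effects of the mutations. The region was 20.1 ppm in the rde-3 library and 3627 ppm in the prg-1 library, or 180.0-fold lower in rde-3 (136 to 243). All 91 sites tested were called lower in the rde-3 library, as were 100.0% of all sites along the reference. With at most 6 reads per site in the rde-3 library, each site of the region needed the prg-1 library to reach 20. This count was thus largely fixed by the filter. Base 441 had 5 reads in the rde-3 library against 2522 in the prg-1 library and was 385-fold lower (165 to 1186). Base 261 had 1 read against 864 and was 659-fold lower, with an interval of 118 to 26067. Base 513 had 0 reads against 416, at least 106-fold lower. Base 286 had 3 reads in the rde-3 library against 49 in the prg-1 library and a ratio of 0.0802 (0.0160 to 0.249).

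For the inserted reporter, 22G-RNAs on this region were abundant where the endogenous oma-1 locus had been deleted and scarce where it was kept. The region had 4501 reads (926 ppm) in the locus-deleted library, against 151 reads (28.6 ppm) in the locus-present library, a ratio of 32.4 (27.6 to 38.4). It made up 37.6% of all antisense reads along the oma-1::gfp reference in the locus-deleted library and 2.96% in the locus-present library. The ratio was 13.9 (11.3 to 17.3) for bases 602 to 1202 and 47.9 (25.8 to 101) for the sequence before the start codon. The ratio of the 2 coding ratios was 2.33 (approximate interval 1.79 to 3.03), so the region differed more than the coding sequence after it. All 55 sites tested in the region were called higher in the locus-deleted library, against 60 of 119 (50.4%) outside it and 66.1% of all sites. With at most 16 reads per site in the locus-present library, each site of the region needed the locus-deleted library to reach 20. Most reads of the locus-present library lay outside the region, where the reference includes gfp. The filter thus acted differently inside and outside, and these counts do not show that the region stood apart. The 2 strains also carry different insertions (neSi75 and neSi74) and lie in different sets and lanes, which cannot be told apart from the deletion.

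Single sites of the inserted reporter spread around that ratio. Base 441 matched the region as a whole, with 477 reads in the locus-deleted library against 16 in the locus-present library and a ratio of 32.4 (19.8 to 57.2). Base 339 had 101 reads against 0, at least 36.6-fold higher, and base 286 had 57 against 0, at least 20.7-fold higher. The smallest ratios were 5.91 (2.61 to 15.7) at base 184, with 38 against 7 reads, and 6.12 (2.85 to 15) at base 214, with 45 against 8 reads. By window the ratio was lowest at bases 1 to 50, at 13.4 (8.84 to 21.3), a window that held 6.58% of the region's reads in the locus-deleted library and 15.9% in the locus-present library. At bases 301 to 350 there were 210 reads in the locus-deleted library and 1 in the locus-present library.

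The inserted reporter was then set against the endogenous intronless gene over the sequence they share. Both comparisons cross library sets, which cannot be told apart from the reporter. With the locus deleted, oma-1::gfp had 926 ppm on the region, against 412 ppm for intronless oma-1::3xflag, a ratio of 2.25 (2.13 to 2.37). For bases 602 to 1202 it was 1.91 (1.74 to 2.11), and the ratio of the 2 ratios was 1.18 (approximate interval 1.05 to 1.31). Of the 68 sites tested in the region, 41 were called higher in the locus-deleted library, against 60.0% of all sites on the shared sequence. The region thus did not stand apart by this count. Many of these sites needed the deeper locus-deleted library to reach 20 reads, so the filter favoured this call. With the locus present, oma-1::gfp had 28.6 ppm, against 412 ppm for intronless oma-1::3xflag, and was 14.4-fold lower (12.2 to 17.1). All 29 sites tested were called lower in the locus-present library, as were 100.0% of all sites on the shared sequence. With at most 16 reads per site in the locus-present library, each site of the region needed the intronless 3xflag library to reach 20. This count was thus largely fixed by the filter. Bases 602 to 1202 were 7.28-fold lower (5.86 to 9.12), so here the region lay further below than the sequence after it, with a ratio of the 2 ratios of 0.505 (approximate interval 0.385 to 0.662).

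Between the locus-deleted oma-1::gfp and the intronless 3xflag libraries the smallest difference by window was next to the start codon. At base 6 there were 83 reads in the locus-deleted library against 92 in the intronless 3xflag library, a ratio of 0.894 (0.656 to 1.22), and at base 214 there were 45 against 50, a ratio of 0.891 (0.582 to 1.36). The window of bases 1 to 50 had a ratio of 1.34 (1.12 to 1.60). Bases 551 to 601 had the highest window ratio, at 4.24 (3.03 to 6.05). Base 491 had 164 reads in the locus-deleted library against 39 in the intronless 3xflag library, a ratio of 4.16 (2.92 to 6.07). With counts under 3 set to 3, the largest site ratio was at base 237, with 36 reads in the locus-deleted library against 3 in the intronless 3xflag library and a ratio of 11.9 (3.76 to 60.3). Base 283 had 28 reads against 2, a ratio of 13.9 with an interval of 3.50 to 120 from the counts as they are. In the locus-present library bases 264, 339 and 483 had 0 reads, where the intronless 3xflag library had 32, 30 and 26.

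The region took the larger part of the coding reads in every library. Its share of the reads on bases 1 to 1202 was 78.6% (77.5 to 79.6) in the locus-deleted library and 61.1% (54.7 to 67.2) in the locus-present library. It was 82.9% (82.3 to 83.6) in the prg-1 library, 76.9% (64.8 to 86.5) in the rde-3 library, 75.7% (74.0 to 77.3) in the intronless 3xflag library and 68.2% (55.6 to 79.1) in the restored library. The region has 155 C positions and bases 602 to 1202 have 162, at 601 bases each. The share of the prg-1 library lay above, and that of the locus-present library below, those of the locus-deleted and intronless 3xflag libraries, with no overlap of intervals.

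At least 1 read was found at 152 of the 155 C positions of the region. Of these C positions, 137 had a read in the locus-deleted library, 54 in the locus-present library, 151 in the prg-1 library, 31 in the rde-3 library, 124 in the intronless 3xflag library and 26 in the restored library. Thinned to the 45 reads of the restored library, the region would have shown 28.7 positions in the locus-deleted library, 27.6 in the locus-present library, 26.9 in the prg-1 library and 27.6 in the intronless 3xflag library, against 27 in the restored library itself, positions without a C included. The C positions read in all 6 libraries numbered 10 (bases 6, 214, 220, 224, 244, 272, 396, 400, 520 and 595), and bases 254, 275 and 508 were read in none. All 124 C positions read in the intronless 3xflag library were also read in the prg-1 library. At 17 positions without a C in the reference there were 32 reads in all.

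The order of site use was much alike in the deepest 3 libraries. Of the 20 most read sites of each, 12 were common to the locus-deleted, prg-1 and intronless 3xflag libraries, and bases 224, 261 and 441 were among the top 5 of all 3. Across the 155 C positions the Pearson correlation of ppm was 0.93 between the prg-1 and intronless 3xflag libraries, 0.91 between the locus-deleted and intronless 3xflag libraries and 0.82 between the locus-deleted and prg-1 libraries. The Spearman values for these pairs were 0.84, 0.82 and 0.81. The restored library, with 45 reads, had a Pearson correlation of 0.33 with the intronless 3xflag library, which became 0.57 without each library's most read position. These values describe the same sequence read in different libraries, with its base composition in common, and positions are not replicates.

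The sequence of the 22G-RNA itself went with how often a site was read. Of the 155 C positions, 88 (56.8%) give a 22G-RNA whose second base is A or T, and these positions held 82.1% to 88.6% of the reads in the 6 libraries. The median number of reads per C position was 18 for A or T and 3 for C or G in the locus-deleted library, 44.5 and 12 in the prg-1 library, and 8 and 2 in the intronless 3xflag library. Without base 441, which begins GA, the share for A or T was 80.5% in the locus-deleted library, 78.7% in the prg-1 library and 83.5% in the intronless 3xflag library. Bases 602 to 1202 showed the same direction, with 49.4% of C positions and 66.7% to 93.3% of reads. Starts with GG were the other extreme, with 20.6% of C positions and 1.99% to 6.04% of reads.

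Base composition of the whole 22 nt and the base next to the start went with use as well. C positions whose 22G-RNA holds 8 or fewer G and C were 21.3% of all and gave 31.2% to 59.1% of the reads, and those with 13 or more were 17.4% and gave 3.45% to 6.82%. Base 224 is among those with few G and C. C positions followed by G on the mRNA, so that the antisense base before the 5′ G is C, were 22.6% of all and held 36.0% to 50.6% of the reads. Without base 441 that share was 32.7% in the locus-deleted library, 37.2% in the prg-1 library and 32.3% in the intronless 3xflag library, against 22.1% of C positions. These features overlap with each other and were not separated.

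The region also holds the codons of both zinc fingers, found in the translated reference as C, C, C and H spaced by 8, 5 and 3 residues. The first spans bases 352 to 411 (codons 118 to 137) and the second bases 478 to 537 (codons 160 to 179). These borders were chosen after the values were seen. The bases between the fingers, 412 to 477, have 15 of the 155 C positions and include base 441. They held 15.8% of the region's reads in the locus-deleted library, 13.9% in the locus-present library, 28.6% in the prg-1 library, 10% in the rde-3 library, 20.5% in the intronless 3xflag library and 4.44% in the restored library. Base 441 alone gave 477 of the 709 reads there in the locus-deleted library. It gave 2522 of 3380 in the prg-1 library and 293 of 406 in the intronless 3xflag library. The high shares of this stretch thus rest mostly on that site, and shares without it were not computed. The finger codons themselves did not stand apart, with 9.46% and 8.71% of reads in the locus-deleted library, 9.59% and 8.82% in the prg-1 library and 8.78% and 8.08% in the intronless 3xflag library, for 10.3% and 9.68% of C positions. The ratio of the prg-1 to the intronless 3xflag library was 7.07 (6.64 to 7.53) before the first finger, 12.3 (11.1 to 13.7) between the fingers and 17.0 (12.6 to 23.4) after the second.

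Most reads of the region matched the reference exactly. Mismatched reads were 2.43% to 11.1% of the region's total, depending on the library, and 1.43% to 8% of it differed at the last base. Of the 418 distinct sequences 150 had no mismatch, 9 were found in all 6 libraries and 247 in a single library.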

How the data were processed

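Small RNA libraries were made from whole worms, with 1 library per genotype. The deposited files list, per distinct 22G-RNA, the raw read count, a ppm value (RPM) and a position on the reporter reference. Raw counts and RPM were made by the authors, per the file headers, and cutadapt and Bowtie2 are named, with no version, in the submitters' processing notes. The ratio of the count to the RPM column gave 1 total per library, which no source used here defines. Reads at deposited positions 111 to 711 were used, and coding bases are deposited positions minus 110. From these, 22G-RNAs were summed per position. Exact Poisson intervals (levels), Clopper-Pearson intervals (shares) and exact conditional intervals (ratios) were computed at 95% with scipy 1.17.1, and the ratio of 2 ratios has an approximate interval on the log scale. The intervals for ratios and shares were tested on simulated Poisson and binomial counts, without duplicate reads. Those for levels and for the ratio of 2 ratios were not tested this way. No test between genotypes was made.

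Sites needed 20 reads over both libraries, counts under 3 were set to 3, and 2-fold was the call. Per comparison the 3 sites at each end, ranked with a pseudocount of 0.5, and the 5 most read sites per library were the sites that could be named, and the text gives those of them that the comparisons turn on. The positions, lists and comparisons were chosen with earlier results of these data known. Each printed sequence was read from the reference given with the deposited positions. Gene coordinates and the assembly name come from the RefSeq table of WBcel235, which has no sequence or exons, so sites were not placed in the genome or on exon borders. Alternatives were unscaled counts, leaving out the most read position, an inner border, a minimum of 2 reads, thinning, and other correlations.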

Additional observations from a re-analysis of the deposited data

How the results depend on the processing

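Of 92 alternative values over 26 results, 52 were labelled as staying, 40 as moved and 0 as reversed. For ratios and shares, staying meant within the counting interval of the value reported, and for a count within 1.5 times of it. Correlations have no counting interval, so their labels are only rough. Of the 28 alternatives of the 7 level ratios, 25 stayed within the counting interval. Unscaled read counts gave 0.0252 for rde-3 over intronless 3xflag and 5.96 for prg-1 over intronless 3xflag, because the scaling totals differ, and leaving out each library's most read position gave 8.13 for the second. The region's share of the shared coding reads was 76.6% in the locus-deleted library, 79.3% in the prg-1 library and 72.6% in the intronless 3xflag library without the most read position, and 75.7%, 80.2% and 73.4% over bases 23 to 579. Over those bases it was 57.1% (50.5 to 63.6) in the locus-present library and 75% (62.6 to 85.0) in the rde-3 library. In the restored library it was 60% (45.9 to 73.0), so a larger part was not clear there. With at least 2 reads required, positions numbered 28 in the locus-present, 8 in the rde-3 and 5 in the restored library. Thinned to 45 reads, they numbered 28.7 in the locus-deleted, 27.6 in the locus-present, 26.9 in the prg-1 and 27.6 in the intronless 3xflag library. For the correlations of site use over windows of 50 bases, on log2(ppm + 1), by rank and without the most read position, the values were 0.66, 0.65, 0.54 and 0.66 for locus-deleted with locus-present, 0.87, 0.86, 0.82 and 0.85 for locus-deleted with intronless 3xflag, 0.77, 0.73, 0.56 and 0.75 for locus-present with intronless 3xflag, and 0.89, 0.85, 0.84 and 0.86 for prg-1 with intronless 3xflag. Over windows, by rank and without the most read position they were 0.43, 0.36 and 0.40 for rde-3 with intronless 3xflag and 0.32, 0.37 and 0.35 for rde-3 with prg-1. For intronless 3xflag with restored, windows gave 0.21, log2(ppm + 1) 0.47, ranks 0.42 and leaving out the most read position 0.57. Apart from the effect of scaling, the causes were not tested. No paired analysis was possible because each genotype has 1 library. The restored and rde-3 libraries, with 45 and 50 reads on the region, do not resolve single sites, and the spread between worm cultures is unknown.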

Other observations

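C positions at the last base of a codon are 31.6% of the C positions of the region. They held 40.8% of its reads in the locus-deleted library, 58.5% in the prg-1 library, 52.2% in the intronless 3xflag library and 26% in the rde-3 library. Base 441 is at such a position. Without it the shares were 33.7% in the locus-deleted library, 47.2% in the prg-1 library and 43.9% in the intronless 3xflag library, against 31.2% of C positions. At bases 602 to 1202 such positions were 16.7% of C positions and held 15.6% to 23.8% of reads in the 6 libraries.

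Sites whose 22G-RNA ends in C were 22.6% of C positions and held 18.2% to 49.0% of the region's reads, lowest in the restored library and highest in the prg-1 library. The share was 31.7% in the locus-deleted library and 41.2% in the intronless 3xflag library. Without base 441 it was 23.6% in the locus-deleted library, 35.2% in the prg-1 library and 31.0% in the intronless 3xflag library, against 22.1% of C positions. At bases 602 to 1202 such sites were 22.2% of C positions and held 4.76% to 24.5% of reads. These features were looked at after the values were seen.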
